A study of Gallus gallus with 8 samples.

Results

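Spectrin, ankyrin and neuronal microtubule proteins build the skeleton beneath the membrane of nerve cells and the tracks inside their axons and dendrites. The set described here held 10 genes and all of their 47 probe sets, of 38439 probe sets tested, which represent 13009 named genes. It comprised the spectrins SPTBN1 and SPTAN1, the protein 4.1 gene EPB41, the ankyrins ANK2 and ANK3, the microtubule-associated proteins DCX, MAP1B, MAP2 and MAPT, and the actin-binding protein CALD1. The genes were chosen on the difference between lens-treated and control chicks in these same arrays, in which the probe sets of SPTBN1 and of DCX differed in the size of their change, and every probe set that the platform annotation assigns to a chosen gene was then included. The differences between the groups are therefore given as a description, without a test.

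Retinal mRNA was compared on Affymetrix GeneChip Chicken Genome arrays to find genes whose expression differs when myopic defocus, an image plane in front of the retina, is imposed by positive lenses. The lens-treated group was 4 White Leghorn chicks that carried +6.9 D lenses on both eyes during 24 h. The control group was 4 White Leghorn chicks of the same batch without lenses. All 8 chicks were aged 9 days and labelled male, the retinas of both eyes of a chick were pooled, and each array held the RNA of 1 chick.

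Spectrins are long, flexible rods made of an alpha and a beta chain, which join short actin filaments into a net under the plasma membrane. Protein 4.1 strengthens the junctions of spectrin with actin, and ankyrins tie ion channels and adhesion molecules to the net, most densely at the axon initial segment, where action potentials start. Doublecortin, MAP1B, MAP2 and tau bind along microtubules and stabilise them, doublecortin and MAP1B mainly in young neurons and growing axons, MAP2 in dendrites and tau in axons.

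Median intensity was 10.8 to 11 per array, and 53.4% to 53.8% of the probe sets of an array lay below an intensity of 16, here called dim. The correlation between any pair of arrays was 0.9924 to 0.9954. The 4 arrays of lens-treated chicks were run on one fluidics station and scanned first, and the 4 arrays of control chicks on another station and scanned afterwards, so that station, scan order and lens treatment cannot be told apart. Modules 1 to 4 of each station held the replicate of the same number in both groups. Of 39 probe sets on the W chromosome, which only hens carry, 12 spanned more than 4 log2 units over the arrays, and their mean log2 intensity was 8.27 to 8.62 in all 4 lens-treated chicks and 8.26 and 8.59 in control replicates 3 and 1, against 3.72 and 3.07 in control replicates 2 and 4. The W-linked signal of 6 of the 8 arrays thus goes against the label male. Values without control replicates 2 and 4 are given below for the 10 genes of the set. They are not given for the other genes listed beside these, whose dependence on those 2 arrays was not tested. The 3′ minus 5′ log2 signal of beta-actin, a measure of RNA integrity, was 1.92 ± 0.12 in lens-treated and 1.72 ± 0.04 in control chicks (SD, n = 4 each). That of GAPDH was −0.31 ± 0.03 in lens-treated and −0.32 ± 0.03 in control chicks, and that of EF1a 0.55 ± 0.02 and 0.58 ± 0.03. The ranges of the groups overlapped for each of these genes. The part of RNA integrity in the values below was not tested. The photoreceptor genes GNAT1, GNAT2 and PDE6C, the only ones of 6 retina markers found by symbol, lay above 16 in mean intensity. The cone transducin GNAT2 averaged 11.98 ± 0.30 in lens-treated and 13.30 ± 0.25 in control chicks (log2, SD, n = 4 each). PDE6C averaged 10.70 ± 0.25 in lens-treated and 10.78 ± 0.19 in control chicks, and GNAT1 4.41 ± 0.50 and 4.00 ± 0.47, both with overlap.

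Over the whole set, most differences were small. The log2 fold change (lens-treated minus control) was above 0 in 32 of the 47 probe sets (68.1%), beside 55.8% of all probe sets. Of the 47, 30 lay above 0 after quantile normalization and 27 after centring of each array on its median. Centring shifted the median log2 fold change over all probe sets by −0.012. The share of all probe sets above 0 after either scaling is not given, here or for the lists below. The median log2 fold change without further scaling was 0.03 over the 47 probe sets and 0.00 over all probe sets. None of the 47 passed an adjusted p under 0.06 with at least 1.5-fold (limma with Benjamini-Hochberg adjustment), nor did any of all probe sets (0.0%). By limma, an unadjusted p under 0.05 was reached by 13 of the 47 and by 1741 of all 38439 probe sets. At least 1.5-fold with an unadjusted p under 0.05 was found for 3 of the 47 higher in lens-treated chicks (0.229% of all probe sets were), namely 1 probe set each of SPTBN1, DCX and MAP1B, and for 0 of the 47 lower (0.193% of all). The 4 and 4 arrays did not overlap in 8 of the 47 with lens-treated chicks higher (1.77% of all probe sets) and in 1 of the 47 with lens-treated chicks lower (1.1% of all). The genes were chosen on this contrast, so these counts are a description. In bulk retina, fewer cells of a type and less mRNA per cell cannot be told apart.

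**Figure D1:**
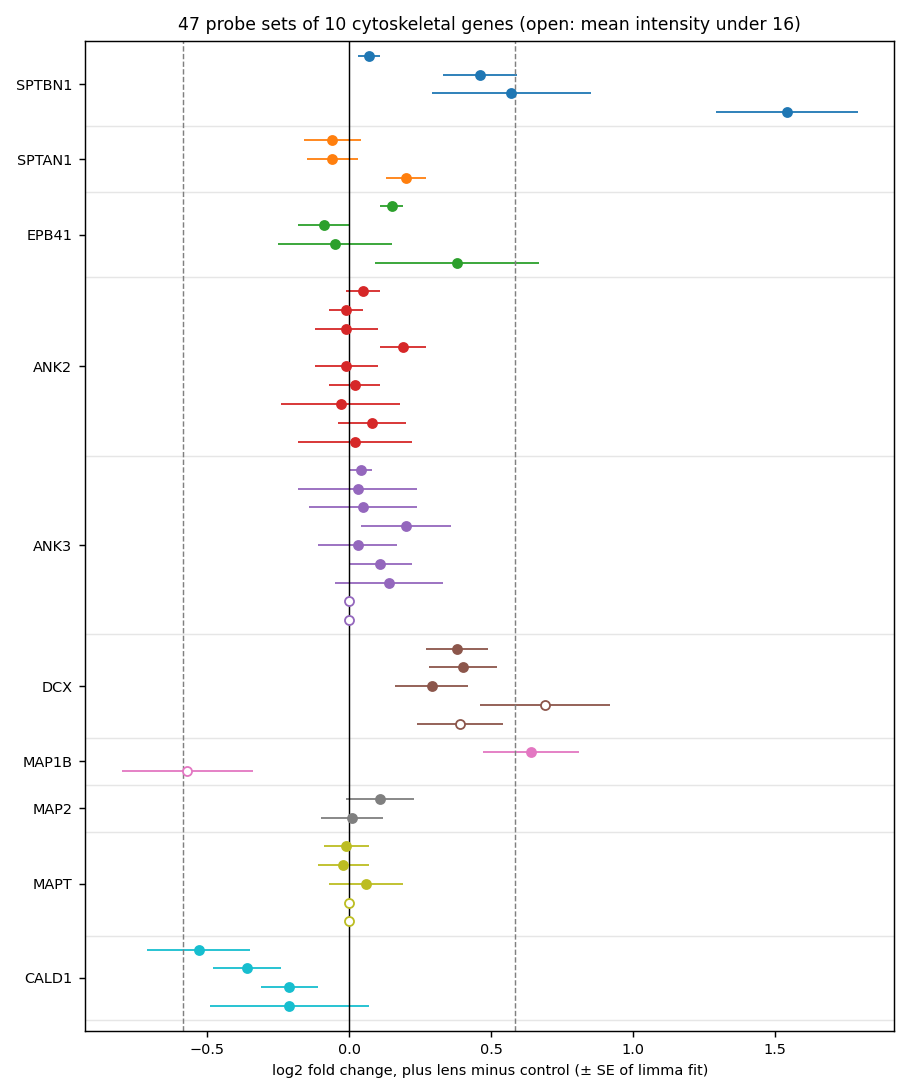
Log2 fold change (lens-treated minus control) of each of the 47 probe sets, with the standard error of the limma fit as a line and dashed lines at 1.5-fold; open points have a mean intensity below 16. All 4 SPTBN1 and all 5 DCX probe sets lie above 0 and all 4 CALD1 probe sets below it, while those of ANK2, ANK3, MAP2 and MAPT lie between −0.03 and 0.20.

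The rule for the choice of the genes did not name the level or the spread of the signal. Whether a choice on the difference between the groups depended on them was not tested. Of the 47 probe sets, 7 were dim (14.9%), against 53.5% of all probe sets, and the median percentile of the mean log2 intensity was 74.5. The median within-group SD of the 40 probe sets at or above 16 was 0.17 on the log2 scale, the same as over all 17859 probe sets at or above 16. The fold change, in contrast, was what the genes were chosen on. As a description, its median absolute log2 value was 0.09 over the 40 beside 0.10 over the 17859. Signals of different probe sets do not rank mRNA levels, since each binds with its own strength. Even within a gene the mean log2 intensity ran widely, between 5.10 and 13.23 for SPTBN1, 6.62 and 13.76 for EPB41, 6.13 and 12.84 for ANK2 and 2.13 and 12.34 for ANK3. Where in the transcript each probe set lies was not analysed here. Probe sets whose names end in _s_at hold probes that match several transcripts, of 1 gene or of similar genes.

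SPTBN1, the widespread non-erythrocytic beta-spectrin (chromosome 3 in GRCg7b), showed the largest difference of the set in the dimmest of its 4 probe sets. The log2 intensity of Gga.9659.1.S1_s_at was 6.32, 5.89, 6.00 and 5.26 in lens-treated chicks, against 4.23, 4.08, 4.73 and 4.29 in control chicks. Every lens-treated chick lay above every control chick, with a gap of 0.53 between the groups. The means were 5.87 ± 0.45 in lens-treated and 4.33 ± 0.28 in control chicks (SD, n = 4 each), a log2 fold change of 1.54 (SE 0.25) or 2.90-fold, with a control intensity of 20.1. Between arrays of equal module the difference was 2.09, 1.81, 1.28 and 0.96, and it was 1.39 without the 2 control arrays that lack W-linked signal.

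The brightest probe set of SPTBN1 was near the top of the signal range and hardly differed. Gga.9226.1.S1_at lay at 13.24, 13.31, 13.32 and 13.19 in lens-treated chicks, against 13.17, 13.25, 13.13 and 13.21 in control chicks. The groups overlapped, and the log2 fold change was 0.07 (SE 0.04). The other two probe sets stood between these extremes. GgaAffx.22491.2.S1_s_at read 8.72, 8.73, 8.95 and 8.51 in lens-treated chicks, against 8.47, 8.39, 7.99 and 8.20 in control chicks, so that its log2 fold change was 0.46 (SE 0.13). Its groups did not overlap, by a gap of 0.035 on the log2 scale. GgaAffx.22491.4.S1_s_at read 8.47, 8.19, 8.58 and 8.14 in lens-treated chicks, against 8.13, 8.22, 7.75 and 6.99 in control chicks. Here control replicates 3 and 4 were the lowest, control replicate 2 lay above lens replicates 2 and 4, and the groups overlapped, so that the log2 fold change of 0.57 carried an SE of 0.28, and it was 0.31 without control replicate 4 and 0.40 without control replicates 2 and 4. Averaged over its 4 probe sets, SPTBN1 lay at 9.05 ± 0.20 in lens-treated and 8.39 ± 0.15 in control chicks (SD, n = 4 each), a difference of 0.66 (SE 0.12) without overlap. Without control replicates 2 and 4, the 4 probe sets differed by 0.11 to 1.39. All 80 values of SPTBN1, over 4 probe sets and 20 ways of processing, were positive. These ways reuse the same arrays, and several of them leave every fold change as it was. Such counts, here and for DCX and CALD1 below, are therefore a description and no independent evidence.

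**Figure D2:**
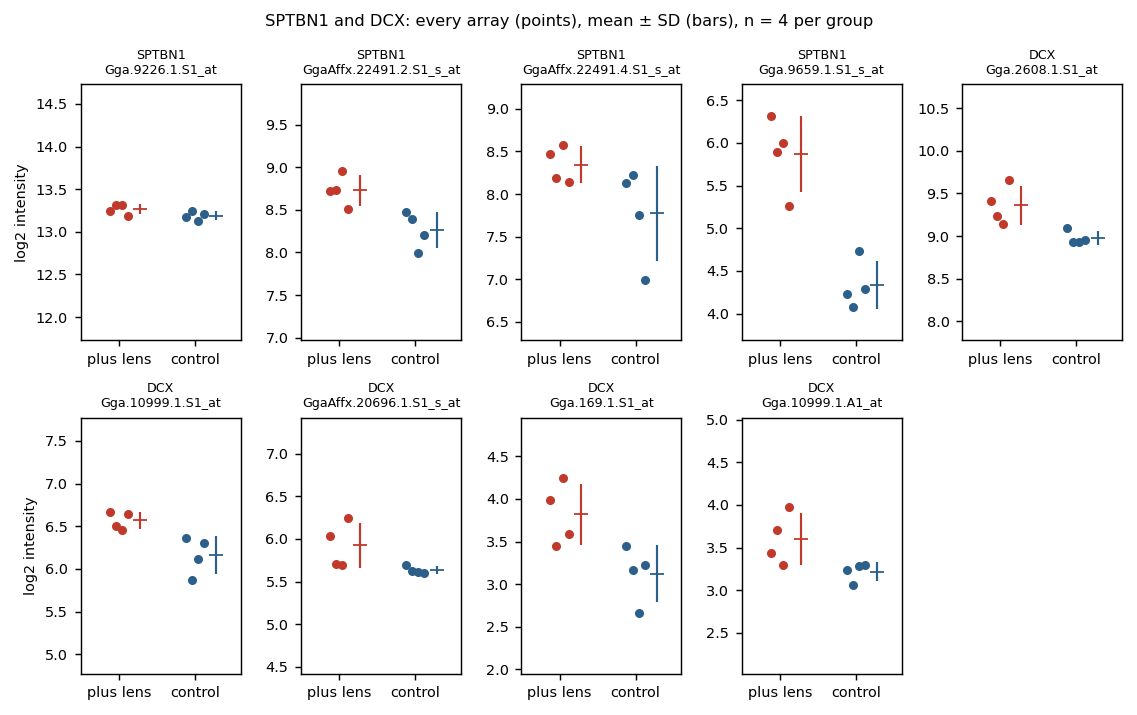
Log2 intensity of each array for the 4 probe sets of SPTBN1 and the 5 of DCX, lens-treated left and control right, with mean ± SD (n = 4 each) beside the points; each panel spans at least 3 log2 units. The gap between the groups is 0.53 for SPTBN1 Gga.9659.1.S1_s_at and at most 0.099 in the DCX panels without overlap.

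SPTAN1, the alpha-spectrin that pairs with SPTBN1 (chromosome 17), lay close to its control level. Its brightest probe set, Gga.4441.1.S1_at, lay at 11.46, 11.73, 11.74 and 11.75 in lens-treated chicks, against 11.55, 11.89, 11.80 and 11.68 in control chicks. The groups overlapped, and the log2 fold change was −0.06 (SE 0.10). A second bright probe set likewise differed by −0.06 (SE 0.09), and the third, GgaAffx.21304.1.S1_s_at, averaged 7.34 ± 0.14 in lens-treated and 7.14 ± 0.06 in control chicks (SD, n = 4 each), a difference of 0.20 (SE 0.07) with overlap. The mean over the 3 probe sets differed by 0.03 (SE 0.06). Without control replicates 2 and 4, the differences of the 3 were at most 0.18. The difference between the alpha and beta chains was not tested.

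EPB41, protein 4.1, which in red cells and neurons fastens spectrin to actin (chromosome 23), had the brightest probe set of the whole group of genes. GgaAffx.21608.1.S1_at read 13.92, 13.74, 13.79 and 13.89 in lens-treated chicks, against 13.68, 13.67, 13.70 and 13.67 in control chicks. The groups did not overlap, with a gap of 0.035, and the log2 fold change was 0.15 (SE 0.04), or 1.11-fold. GgaAffx.21608.1.S1_s_at, designed to the same target by its name, went the other way, at 12.24 ± 0.12 in lens-treated and 12.32 ± 0.13 in control chicks (SD, n = 4 each), with a difference of −0.09 (SE 0.09). The other two probe sets differed by 0.38 (SE 0.29) and −0.05 (SE 0.20), both with overlap. Without control replicates 2 and 4, the EPB41 probe sets differed by −0.15 to 0.29, and the brightest by 0.14. Protein 4.1 and spectrins are also abundant in red cells. All 6 erythrocyte marker genes found by symbol were dim, among them the globins HBA1 and HBAD, the anion exchanger SLC4A1, the erythroid spectrin SPTB and EPB42, and their summed intensity was 31 to 59 in lens-treated and 30 to 31 in control chicks.

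The ankyrin signals lay close to the control level. ANK2, ankyrin-B of axon shafts (chromosome 4), had 9 probe sets, of which 5 lay above 0 and 4 below it, with 4 above 0 after quantile normalization. The differences ran between −0.03 and 0.19. Its brightest, Gga.15966.1.S1_at, read 12.72, 12.91, 12.87 and 12.96 in lens-treated chicks, against 12.84, 12.79, 12.93 and 12.71 in control chicks, and its log2 fold change was 0.05 (SE 0.06) with overlap. Without control replicates 2 and 4, they ran between −0.32 and 0.07 with 7 of 9 below 0, and the largest, 0.19 (SE 0.08) in Gga.756.1.S1_s_at, was 0.06, while GgaAffx.23757.1.S1_at moved the most, to −0.32 beside −0.03 (SE 0.21) over all arrays. None of the 9 probe sets separated the groups.

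ANK3, ankyrin-G of the axon initial segment (chromosome 6), had 9 probe sets with differences of 0.00 to 0.20, all above 0, of which 7 remained above 0 after centring on the median. Gga.3714.1.S1_at, the brightest, read 12.30, 12.30, 12.41 and 12.43 in lens-treated chicks, against 12.27, 12.33, 12.36 and 12.33 in control chicks, so that its log2 fold change was 0.04 (SE 0.04). The groups overlapped in this and in the other 8 probe sets, and the 2 dim ones lay at a difference of 0.00. Chicks of a group varied more than the groups differed in Gga.5161.1.S1_s_at, where the SD was 0.37 among lens-treated and 0.24 among control chicks beside a difference of 0.03 (SE 0.21). Without control replicates 2 and 4, 8 of the 9 lay above 0 and the differences ran between −0.11 and 0.19. Over all probe sets of a gene, the mean difference was 0.03 (SE 0.06) for ANK2 and 0.07 (SE 0.09) for ANK3.

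DCX, doublecortin, which binds and bundles the microtubules of young neurons (chromosome 4), lay higher in lens-treated chicks in all 5 probe sets, by 0.29 to 0.69 on the log2 scale. Its brightest probe set, Gga.2608.1.S1_at, read 9.41, 9.24, 9.14 and 9.66 in lens-treated chicks, against 9.10, 8.93, 8.93 and 8.95 in control chicks. The groups did not overlap, with control replicate 1 just 0.04 below the lowest lens-treated chick. The means were 9.36 ± 0.23 in lens-treated and 8.98 ± 0.08 in control chicks (SD, n = 4 each), a log2 fold change of 0.38 (SE 0.11) or 1.30-fold. Gga.10999.1.S1_at read 6.67, 6.50, 6.46 and 6.64 in lens-treated chicks, against 6.36, 5.87, 6.12 and 6.30 in control chicks, and its log2 fold change was 0.40 (SE 0.12) without overlap.

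The probe set of DCX with the largest fold change was dim. Gga.169.1.S1_at read 3.99, 3.45, 4.24 and 3.59 in lens-treated chicks, against 3.45, 3.17, 2.66 and 3.22 in control chicks, means of 3.82 ± 0.36 and 3.13 ± 0.33 (lens-treated and control, SD, n = 4 each). Its log2 fold change of 0.69 (SE 0.23), or 1.62-fold in the deposited values, was 0.06 with values below 16 raised to 16, and the gap between the groups was 0.0017. Gga.10999.1.A1_at was dim as well and differed by 0.39 (SE 0.15), which was 0.00 with values below 16 raised to 16. GgaAffx.20696.1.S1_s_at differed by 0.29 (SE 0.13) with overlap, and by 0.18 without lens replicate 4, lens replicates 1 and 4 at 6.04 and 6.25 standing above the rest of both groups, which read 5.60 to 5.71. In every module all 5 probe sets were higher in the lens-treated chick, which for 4 of them follows from the lack of overlap. Averaged over the 5 probe sets, DCX lay at 5.86 ± 0.14 in lens-treated and 5.42 ± 0.12 in control chicks (SD, n = 4 each), a difference of 0.43 (SE 0.09) without overlap. Over the 20 ways of processing, 97 of 98 values of DCX were positive and 1 was 0, that of Gga.10999.1.A1_at with values below 16 raised to 16, and the 5 probe sets differed by 0.27 to 0.76 without control replicates 2 and 4. The 2 control arrays without W-linked signal differed from the other control arrays by −0.04 in DCX.

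MAP1B, a large microtubule-binding protein of growing axons, gave a pair of probe sets that went opposite ways near the dim limit. Gga.2129.1.S1_s_at read 4.55, 4.47, 4.47 and 3.81 in lens-treated chicks, against 3.66, 3.80, 3.68 and 3.59 in control chicks. The groups did not overlap, but lens replicate 4 exceeded control replicate 2 by only 0.0011. The means were 4.32 ± 0.35 in lens-treated and 3.68 ± 0.09 in control chicks (SD, n = 4 each), a log2 fold change of 0.64 (SE 0.17) or 1.56-fold, which was 0.37 with values below 16 raised to 16. GgaAffx.9524.1.S1_at read 3.54, 3.55, 3.59 and 3.53 in lens-treated chicks, against 4.14, 3.64, 4.80 and 3.92 in control chicks, so that its log2 fold change was −0.57 (SE 0.23), or 1.49-fold lower, also without overlap. It was −0.23 with values below 16 raised to 16 and −0.35 without control replicate 3. The control chicks were the more variable here, with an SD of 0.49 beside 0.02 in lens-treated chicks. The average of the pair differed by 0.03 (SE 0.14).

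MAP1B is the only gene of the set on the Z chromosome (GRCg7b), and birds with a W chromosome have a single Z. In the control arrays without W-linked signal, Z-linked probe sets at or above 16 were higher by a median of 0.52 than in the control arrays with it (611 probe sets), against −0.02 for 13778 autosomal ones. With dim probe sets included, the median was 0.16 over 1181 Z-linked and 0.01 over 25633 autosomal ones. Both MAP1B probe sets lay near the dim limit. The second MAP1B probe set went the other way, by −0.69 between the same arrays, and its log2 fold change was −0.92 without control replicates 2 and 4. The first differed by 0.03, and its log2 fold change was 0.66 without them. Over the 45 autosomal probe sets of the other genes the median of this difference was −0.04. With 2 arrays on each side, these values were not tested.

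**Figure D3:**
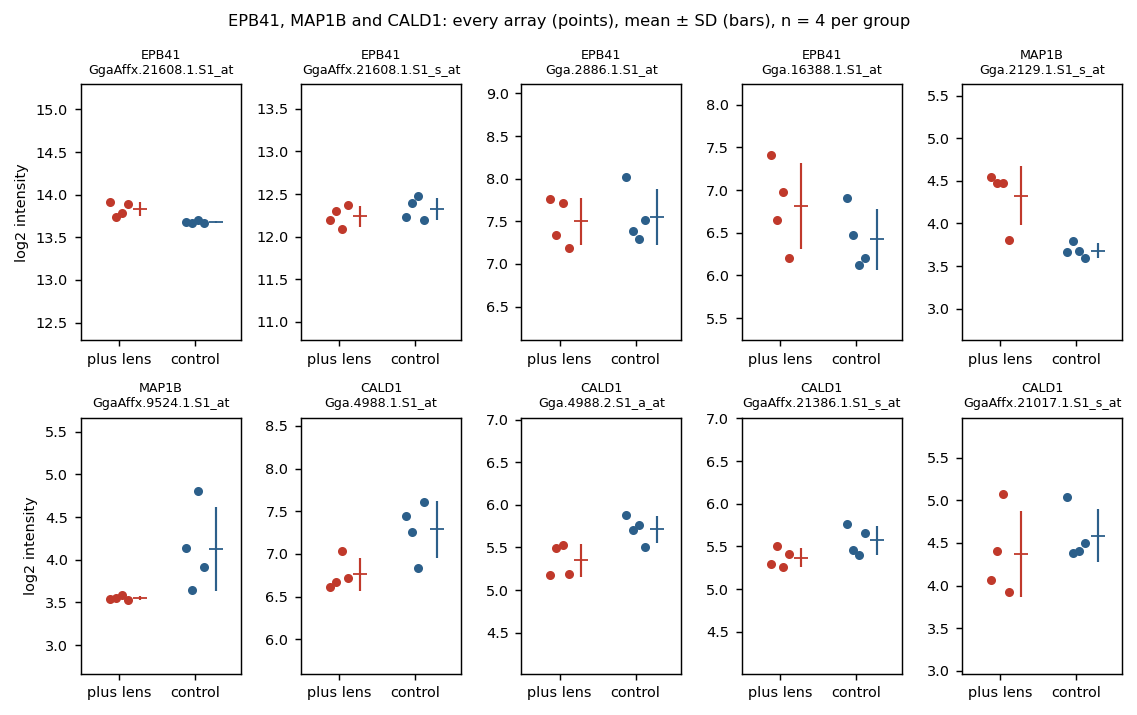
Log2 intensity of each array for the probe sets of EPB41, MAP1B and CALD1, lens-treated left and control right, with mean ± SD (n = 4 each) beside the points; each panel spans at least 3 log2 units. The MAP1B pair goes opposite ways, by 0.64 and −0.57, and all 4 CALD1 probe sets are lower in lens-treated chicks, with overlap.

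MAP2 and MAPT, the microtubule proteins of mature dendrites and axons, differed little. The brighter probe set of MAP2 (chromosome 7), GgaAffx.25630.2.S1_s_at, read 9.38, 9.21, 9.23 and 9.06 in lens-treated chicks, against 9.41, 9.08, 8.91 and 9.03 in control chicks, and its log2 fold change was 0.11 (SE 0.12). The groups overlapped, as they did in the other probe set of MAP2, which differed by 0.01 (SE 0.11), and without control replicates 2 and 4 the pair differed by 0.06 and −0.08. MAPT, which encodes tau (chromosome 27), read 6.48, 6.32, 6.18 and 6.37 in lens-treated chicks, against 6.39, 6.25, 6.50 and 6.26 in control chicks in its brightest probe set, Gga.15322.1.S1_s_at. Its log2 fold change was −0.01 (SE 0.08), and the 5 MAPT probe sets lay between −0.02 and 0.06, or −0.10 and 0.07 without control replicates 2 and 4. Of the 5, 2 were dim, and none separated the groups. The mean over the probe sets of MAPT differed by 0.01 (SE 0.03).

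CALD1, caldesmon, which binds actin, tropomyosin and myosin and restrains their sliding in smooth muscle and other cells (chromosome 1), was lower in lens-treated chicks in all 4 probe sets, with log2 fold changes of −0.53 to −0.21. Gga.4988.1.S1_at, the brightest, read 6.61, 6.67, 7.04 and 6.72 in lens-treated chicks, against 7.45, 7.26, 6.84 and 7.61 in control chicks. Only lens replicate 3 and control replicate 3 crossed, so that the groups overlapped. The means were 6.76 ± 0.19 in lens-treated and 7.29 ± 0.33 in control chicks (SD, n = 4 each), a log2 fold change of −0.53 (SE 0.18), or 1.45-fold lower. Gga.4988.2.S1_a_at read 5.18, 5.49, 5.53 and 5.19 in lens-treated chicks, against 5.88, 5.71, 5.76 and 5.50 in control chicks, so that its log2 fold change was −0.36 (SE 0.12) with overlap. The remaining probe sets differed by −0.21 (SE 0.10) and −0.21 (SE 0.28).

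The average over the 4 probe sets of CALD1 was 5.46 ± 0.21 in lens-treated and 5.79 ± 0.18 in control chicks (SD, n = 4 each), a difference of −0.33 (SE 0.13) with overlap. By module, it was −0.75, −0.19, 0.12 and −0.50. All 80 values of CALD1 over the 20 ways of processing were negative, and the 4 probe sets differed by −0.47 to −0.21 without control replicates 2 and 4. Caldesmon also marks vessel walls, so the other contractile genes were read beside it. Of the 6 smooth muscle and pericyte markers found by symbol, ACTA2, DES, MYH11, PDGFRB and TAGLN were dim. The myosin light chain kinase MYLK lay above 16 in all 4 of its probe sets, which differed by 0.17, 0.75, 0.55 and 0.48, higher in lens-treated chicks. By limma, 1 of the 11 probe sets of these 6 markers had an unadjusted p under 0.05 with at least 1.5-fold, higher in lens-treated chicks (0.229% of all probe sets were). The groups did not overlap in 2 of the 11, with lens-treated chicks higher (1.77% of all). The summed intensity of the 6 genes, by the brightest probe set of each, was 2243 to 2681 in lens-treated and 2114 to 2230 in control chicks. With the other 5 genes dim, this sum mostly reflects MYLK. Pigment epithelium, which can adhere to a dissected retina, gave a sum of 489 to 817 in lens-treated and 617 to 1607 in control chicks over 6 markers, 4 of them dim. Of their 11 probe sets, 8 lay above 0 (4 after centring on the median). By limma, 1 of the 11 had an unadjusted p under 0.05 with at least 1.5-fold, lower in lens-treated chicks (0.193% of all probe sets were). It was the dim probe set of TYRP1, a gene on the Z chromosome, and its value without control replicates 2 and 4 is not given. The part of either cell type in the CALD1 values was not tested.

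**Figure D4:**
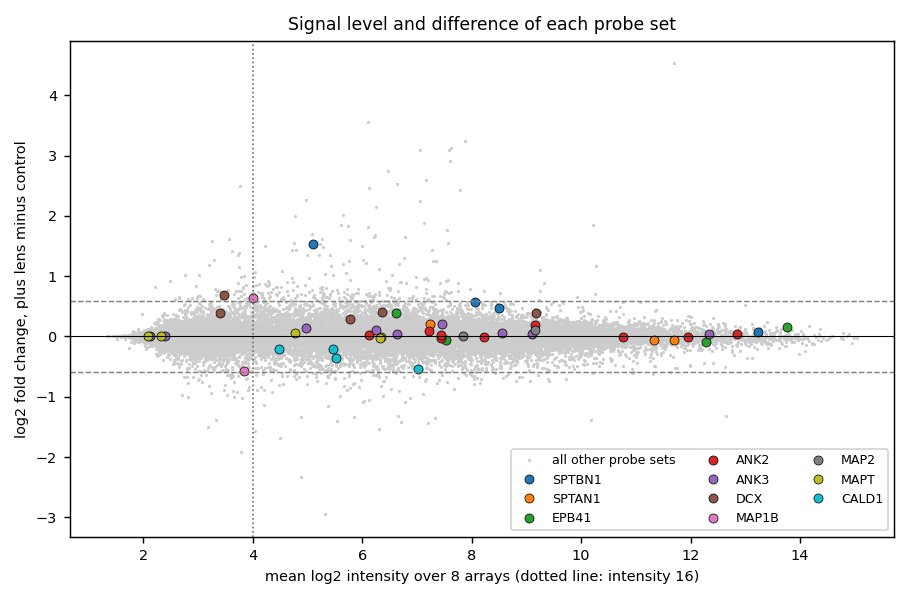
Log2 fold change (lens-treated minus control) against the mean log2 intensity over the 8 arrays for all 38439 probe sets (grey) and the 47 of the set (coloured by gene); dashed lines mark 1.5-fold and the dotted line an intensity of 16. SPTBN1 Gga.9659.1.S1_s_at at 1.54 stands apart from the other coloured points, and those of DCX and MAP1B beyond 1.5-fold lie at or left of the dotted line.

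Just inside 1.5-fold stood DCX Gga.169.1.S1_at (1.62-fold) and MAP1B Gga.2129.1.S1_s_at (1.56-fold). Just outside it stood SPTBN1 GgaAffx.22491.4.S1_s_at (1.49-fold higher) and MAP1B GgaAffx.9524.1.S1_at (1.49-fold lower).

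Other genes of the same structures were listed by role, and none of their probe sets passed the adjusted threshold, beside 0.0% of all probe sets. The adjusted p of the probe sets named below was 0.830 to 0.998 (limma with Benjamini-Hochberg adjustment). An unadjusted p under 0.05 by limma, counted below for each list, was reached by 1741 of all 38439 probe sets. In the spectrin skeleton, 19 of 24 genes were found by symbol, with 34 of 60 probe sets above 0 (20 after centring on the median), a median log2 fold change of 0.00, 2 at an unadjusted p under 0.05 and 0 of these at least 1.5-fold. The groups did not overlap in 1 with lens-treated chicks higher and 2 with them lower, beside 1.77% and 1.1% of all probe sets. The 1 was a dim probe set of EPB41L5, a relative of protein 4.1. It averaged 4.05 ± 1.59 in lens-treated and 2.47 ± 0.07 in control chicks (log2, SD, n = 4 each). Its difference was 1.58 (SE 0.75), with a wide spread among lens-treated chicks. The brightest EPB41L5 probe set differed by 0.04 (SE 0.10) with overlap. EPB41L2, a relative of protein 4.1, averaged 11.52 ± 0.17 in lens-treated and 11.30 ± 0.10 in control chicks (log2, SD, n = 4 each). A probe set of ANK1, the ankyrin of red cells, lay near the dim limit. It averaged 4.41 ± 0.09 in lens-treated and 4.57 ± 0.08 in control chicks. The log2 fold changes were 0.22 (SE 0.10) for EPB41L2 and −0.16 (SE 0.06) for this ANK1 probe set, whose groups did not overlap. The brightest ANK1 probe set averaged 7.82 ± 0.27 in lens-treated and 8.03 ± 0.22 in control chicks. Its difference was −0.21 (SE 0.16) with overlap. The remaining ANK1 probe sets were dim and differed by −0.01 to 0.04. EPB41L4A and EPB41L4B, also relatives of protein 4.1, differed by 0.04 (SE 0.02) and −0.53 (SE 0.21) in dim probe sets. The brightest EPB41L4B probe set averaged 7.93 ± 0.21 in lens-treated and 7.98 ± 0.24 in control chicks. Its difference was −0.04 (SE 0.15) with overlap, and another dim EPB41L4B probe set differed by 0.05 (SE 0.03).

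Of 18 genes of the axon initial segment, its channels and its adhesion molecules, 14 were found, with 27 of 39 probe sets above 0 (22 after centring), a median of 0.12, 5 at an unadjusted p under 0.05 and 0 of these at least 1.5-fold. The groups did not overlap in 2 of the 39, both higher in lens-treated chicks (1.77% of all probe sets were). CNTN1, the adhesion molecule contactin, averaged 9.33 ± 0.17 in lens-treated and 9.00 ± 0.10 in control chicks, and its log2 fold change was 0.33 (SE 0.09). NRCAM, an ankyrin-binding adhesion molecule, averaged 9.90 ± 0.13 in lens-treated and 9.65 ± 0.12 in control chicks, so that its log2 fold change was 0.24 (SE 0.08). These were the pair without overlap. The dynein regulator NDEL1 and the sodium channel SCN8A differed by −0.22 (SE 0.09) and −0.26 (SE 0.11) with overlap. The brightest SCN8A probe set differed by −0.15 (SE 0.09), and the other three by 0.22, 0.24 and 0.38 (SE 0.25 to 0.53).

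Of 49 further microtubule proteins 42 were found, with 64 of 117 probe sets above 0 (50 after centring), a median of 0.00, 12 at an unadjusted p under 0.05 and 0 of these at least 1.5-fold. The groups did not overlap in 4 with lens-treated chicks higher and 3 with them lower, beside 1.77% and 1.1% of all probe sets. TPPP, which bundles microtubules, averaged 12.10 ± 0.07 in lens-treated and 11.85 ± 0.08 in control chicks. Its log2 fold change was 0.25 (SE 0.05), and its other probe set differed by 0.20 (SE 0.06), both without overlap. STMN4, of the tubulin-binding stathmins, averaged 8.11 ± 0.04 in lens-treated and 8.24 ± 0.04 in control chicks, so that its log2 fold change was −0.14 (SE 0.03) without overlap. The alpha-tubulin TUBA1A differed by −0.12 (SE 0.04) and −0.22 (SE 0.08) in its probe sets. CLIP2, which binds microtubule ends, differed by 0.20 (SE 0.06) in its brightest probe set and by −0.24 (SE 0.07) in another near the dim limit.

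Neurofilaments and growth cone proteins gave 6 of 7 genes and 9 of 12 probe sets above 0 (7 after centring), with a median of 0.07, 2 at an unadjusted p under 0.05 and 0 of these at least 1.5-fold. The groups did not overlap in 1 of the 12, lower in lens-treated chicks (1.1% of all probe sets were). BASP1, a growth cone membrane protein, averaged 12.95 ± 0.04 in lens-treated and 13.08 ± 0.06 in control chicks in its brightest probe set, a log2 fold change of −0.13 (SE 0.03) without overlap. NEFM, the middle neurofilament chain, differed by 0.21 (SE 0.09) in its brightest probe set, MARCKS by 0.21 (SE 0.08) in 1 probe set and NEFH by −0.08 (SE 0.15), all with overlap. The brightest MARCKS probe set differed by 0.09 (SE 0.13), and the others by 0.12 (SE 0.15) and 0.17 (SE 0.23), also with overlap. NEFM is also among the ganglion cell markers, of which 7 of 9 were found and whose summed intensity was 17591 to 22136 in lens-treated and 17697 to 20716 in control chicks. The ganglion cell factor POU4F2 was dim.

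Of 20 partners of caldesmon 16 were found, with 23 of 39 probe sets above 0 (20 after centring) and a median of 0.01. Of 5 at an unadjusted p under 0.05, 2 differed by at least 1.5-fold, both of the tropomyosin TPM3 and higher in lens-treated chicks (0.229% of all probe sets were). They averaged 6.90 ± 0.36 and 8.03 ± 0.32 in lens-treated chicks, against 6.27 ± 0.08 and 7.09 ± 0.68 in control chicks (log2, SD, n = 4 each). Their log2 fold changes were 0.63 (SE 0.17) and 0.94 (SE 0.35), with no overlap between the groups, while the other TPM3 probe sets were dim. The actinin ACTN2 differed by 0.25 (SE 0.08) and 0.27 (SE 0.09), the tropomyosin TPM2 by −0.33 (SE 0.12) in one of its probe sets, and ACTN4 by −0.23 (SE 0.10) in a dim one. TPM2 lies on the Z chromosome. Z-linked probe sets at or above 16 were higher by a median of 0.52 in the control arrays without W-linked signal than in those with it. The TPM2 values without control replicates 2 and 4 are not given, and the part of the Z chromosome in them was not tested.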

How the data were processed

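Retinal RNA of 4 lens-treated and 4 control chicks was hybridized to 8 arrays. The deposited values are linear intensities, 1 for each probe set on each array, that the authors obtained by GC-RMA. GC-RMA corrects for non-specific binding, which compresses dim probe sets, and normalizes over all arrays, so that a difference is relative to the whole. The experiment records gave station, module and scan order only. The number of arrays limits the precision.

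The log2 of the intensities was used without further scaling. The 96 Affymetrix controls among 38535 probe sets were not used. By the platform annotation, 27168 probe sets had 1 symbol, 177 had several and 11094 had none. Chromosomes came from RefSeq (GRCg7b) for the 26853 probe sets whose gene identifier matched. Groups were compared as lens-treated minus control with limma 3.58.1 (lmFit, eBayes) in R 4.3.3 over 38439 probe sets, with Benjamini-Hochberg adjustment. Tables and plots were made with Python 3.11.15, pandas 2.3.3 and matplotlib 3.10.9. The steps were tested on simulated data.

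The members, the lists and the alternatives were chosen with earlier results of these data known. Every member was described with all its probe sets, per array for the brightest of each gene and those of at least 1.5-fold. The other probe sets given per array were added after their values were seen. Of each companion list, the 2 higher and the 2 lower genes with the smallest limma p were named, with the next gene where 1 gene came under both. EPB41L5 was added for its groups without overlap. Alternatives were the methods' t-test, other variance models, scalings, filters and floors, a W-linked term, a replicate block and left-out arrays. Deviations of same-numbered arrays from their group means correlated by −0.01 to 0.11 and were not taken as paired. Sequences were not analysed here.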

Additional observations from a re-analysis of the deposited data

Results flagged for a closer look

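Among the 94 groups of 4 arrays (47 probe sets, 2 groups each), 9 held an array farther from the other three than Dixon's test for outliers allows (9.57%). Chance gives about 1 in 20 for independent groups of normally distributed values. The share over all probe sets is not given, and the 94 groups are not independent, since they come from the same 8 arrays. The 9 groups are therefore listed as a description.

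Of these, 4 touch probe sets of lens-treated chicks. SPTAN1 Gga.4441.1.S1_at was low in lens replicate 1, at 11.46 beside 11.73 to 11.75 in the other lens-treated chicks. ANK2 Gga.756.1.S1_s_at was low in lens replicate 2, at 9.15 beside 9.28 to 9.29. MAP1B Gga.2129.1.S1_s_at was low in lens replicate 4, at 3.81 beside 4.47 to 4.55, the array that left a gap of only 0.0011 to the control chicks. ANK3 GgaAffx.1974.2.S1_at was at 2.12 in lens replicate 4 beside 2.13, in a dim probe set whose differences are near the rounding of the values.

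The other 5 concern control chicks. DCX Gga.2608.1.S1_at was high in control replicate 1, at 9.10 beside 8.93 to 8.95, which left a gap of 0.04 to the lens-treated chicks. EPB41 GgaAffx.21608.1.S1_at was at 13.70 in control replicate 3 beside 13.67 to 13.68. ANK2 GgaAffx.23757.3.S1_s_at was low in control replicate 2, at 7.27 beside 7.48 to 7.50. MAPT Gga.5826.1.S1_at was low in control replicate 1, at 6.12 beside 6.40 to 6.41, and the dim MAPT Gga.5826.2.S1_x_at was at 2.32 in control replicate 3 beside 2.33.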

How the results depend on the processing

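The number of the 47 probe sets with at least 1.5-fold and an unadjusted p under 0.05 was 3 in the limma fit used above. It was 1 with values below 16 raised to 16 (SPTBN1) and 1 with the mean over all probe sets of each gene (SPTBN1). With the brightest probe set of each gene alone it was 1 (MAP1B), and with 1 array left out it was 1 to 4. The 1 was without lens replicate 1, where SPTBN1 Gga.9659.1.S1_s_at alone was left at 1.38. That probe set was past both limits under every alternative fitted to all probe sets, at 1.38 to 1.74. CALD1 Gga.4988.1.S1_at passed both limits without lens replicate 3 (−0.63), without control replicate 3 (−0.68) and with array weights (−0.68). MAP1B GgaAffx.9524.1.S1_at did so without control replicate 2 (−0.73), after quantile normalization (−0.59) and without both control arrays that lack W-linked signal (−0.92), but was −0.23 with values below 16 raised to 16 and −0.35 without control replicate 3. DCX Gga.169.1.S1_at did not without lens replicate 1 or 3 or control replicate 3, with array weights or without those 2 control arrays. With the replicate number as a block (replicate block), 2 of the 47 remained, DCX Gga.169.1.S1_at no longer among them. The cause was not tested. The median log2 fold change over the 47 stayed between 0.0121 and 0.0671, beside 0.0342 in the limma fit used above.

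Over all probe sets, the adjusted threshold was passed by 0 in the limma fit used above and by 0 with the methods' t-test, both computed here. It was passed by 1 with only probe sets of at least 16 (EGR1, adjusted p = 0.0513 by limma, with 17859 probe sets tested). With the lack of W-linked signal as a term, 3 passed, and with 1 array left out 0 to 1 (CD226 without lens replicate 4, PPFIA2 without control replicate 1). None of these was among the 47. The list at the unadjusted threshold held 162 in the limma fit used above, 287 with array weights, 106 with values raised to 16 and 145 with the replicate block. It held 133 to 333 with 1 array left out, the 333 without control replicate 1 and 246 without control replicate 3.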
